A study of Caenorhabditis elegans with 12 samples.

Results

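The genes irg-4, irg-5 and irg-8 of the nematode Caenorhabditis elegans were followed across all 12 arrays of a lithium experiment. They were chosen by name, as the probes that the platform annotation, updated through gene identifiers to the symbols of the WBcel235 gene table, gives to these genes. Each gene has 1 probe, so the set holds 3 of 22370 probes and 3 of the 8187 genes that carry a name here. All 3 probes had a value on every array.

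Every sample was a pellet of 50 picked worms, wild-type hermaphrodites of the N2 strain. They were cultured at 20 °C from the egg onward and spent 48 h at 25 °C before harvest. The 6 control samples spent that time on plain NGM plates and the 6 treated samples were exposed to 10 mM lithium chloride (LiCl); the samples are described as grown and harvested separately. The stage at harvest is not given in the labels, and whole animals were pooled, so a level is an average over all tissues of 50 worms. Amplified RNA of each sample, labelled with Cy5, shared its own 2-colour array with Cy3-labelled RNA of mixed-stage N2 worms, the common reference, and no dye swap is named.

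A value is the log ratio of a probe as deposited, read as log2 and, from the dyes in the labels, as likely sample over reference. Array medians lay between 0.018 and 0.044, so 0 stands near the middle probe of each array. A value above 0 then means a higher ratio to the reference than about that of the middle probe. Whether it also means more RNA than in the reference cannot be told, since the normalization is not given. The direction is not stated in the sources used here, and with the ratio turned every rise below would read as a fall. The log base and any scale factor are not given, so differences are in log ratio units and no fold is stated.

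The irg genes are named as infection response genes, after their induction when worms feed on pathogenic bacteria. The worm has no circulating immune cells, and its intestine meets ingested microbes directly. There a p38 mitogen-activated protein kinase cascade that ends in PMK-1 controls many secreted effectors. irg-4 and irg-5 are known outputs of this pathway in the intestine, both encode proteins with a CUB-like domain, and their promoters are used as reporters of it. The function of irg-8 is less defined, and no role is given to it here.

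irg-4 and irg-5 rose in LiCl worms and irg-8 did not pass the test. The difference, LiCl minus control, was 2.68 ± 0.36 (SE, adjusted p = 0.000763) for irg-4 and 2.11 ± 0.25 (SE, adjusted p = 0.000353) for irg-5, with 6 arrays a group (limma, two-sided, adjusted over all probes by the Benjamini-Hochberg method). For irg-8 it was -0.42 ± 0.28 (SE, limma adjusted p = 0.416). Of all 22370 probes, 4.50% passed the same threshold of 0.05 as higher in LiCl and 3.50% as lower, and the median difference was 0.02. Since whole worms were measured, a larger share of expressing cells and more RNA per cell cannot be told apart.

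irg-4, a CUB-like effector of the intestine, read -1.11, -0.15, -1.69, -1.47, -0.39 and -0.64 on control replicates 1 to 6. On LiCl replicates 1 to 6 it read 2.66, 1.74, 1.38, 0.73, 2.46 and 1.65. All 6 control values lay below 0 and all 6 LiCl values above it, and the groups did not overlap. The gap between the highest control and the lowest LiCl array was 0.88, and a gap of this kind, with LiCl above control, was found for 3.60% of all probes. The mean went from -0.91 ± 0.61 (SD, n = 6) to 1.77 ± 0.71 (SD, n = 6), with a 95% interval of the difference from 1.91 to 3.45. Among all probes this was the 15th largest increase, and the 10th largest among the 8757 named probes.

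irg-5, the other CUB-like effector, read -2.03, -2.19, -2.71, -2.46, -2.02 and -2.34 on control replicates 1 to 6. On LiCl replicates 1 to 6 it read 0.79, -0.28, -0.75, -0.63, -0.05 and -0.19. Control arrays were close together, far under 0, whereas LiCl arrays came near it and 1 of them, replicate 1, lay above it. The groups stood 1.27 apart at their nearest arrays. The mean went from -2.29 ± 0.27 (SD, n = 6) to -0.19 ± 0.55 (SD, n = 6), with a 95% interval of the difference from 1.57 to 2.64. By size the increase was the 58th of all probes and the 32nd of the named ones, and by p-value irg-5 stood before irg-4, at places 78 and 143 of all probes.

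irg-8 read -2.64, -2.32, -3.08, -2.32, -3.02 and -2.34 on control replicates 1 to 6. On LiCl replicates 1 to 6 it read -2.45, -3.54, -3.19, -2.33, -3.93 and -2.81. It stayed below 0 on all 12 arrays, and the groups overlapped, LiCl replicates 1, 4 and 6 lying inside the control range. The mean went from -2.62 ± 0.35 (SD, n = 6) to -3.04 ± 0.63 (SD, n = 6). The 95% interval of the difference ran from -1.03 to 0.19, so it held 0. A difference between the response of irg-8 and those of the other 2 genes was not tested.

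**Figure D1:**
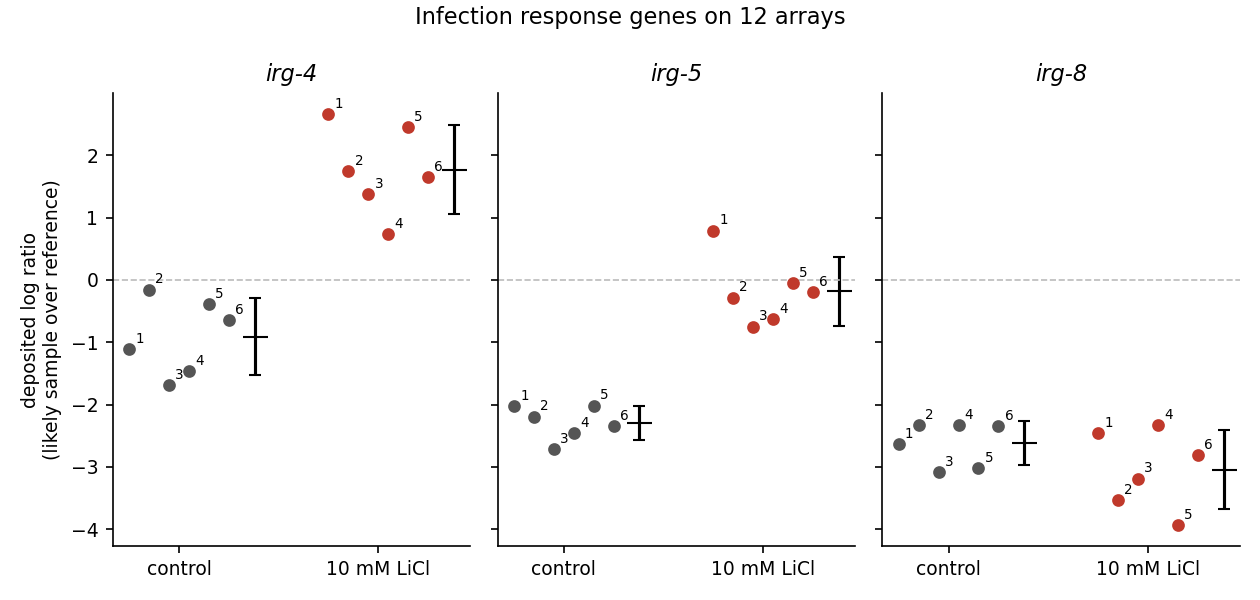
Deposited log ratio (vertical axis, likely sample over reference, dashed line at 0) of irg-4, irg-5 and irg-8 on each array, control in grey and LiCl in red, with replicate numbers beside the points and the mean ± SD of 6 arrays as a black bar. The LiCl points of irg-4 (0.73 to 2.66) and irg-5 (-0.75 to 0.79) all lie above the control points, while those of irg-8 (-3.93 to -2.33) overlap with control (-3.08 to -2.32).

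**Figure D2:**
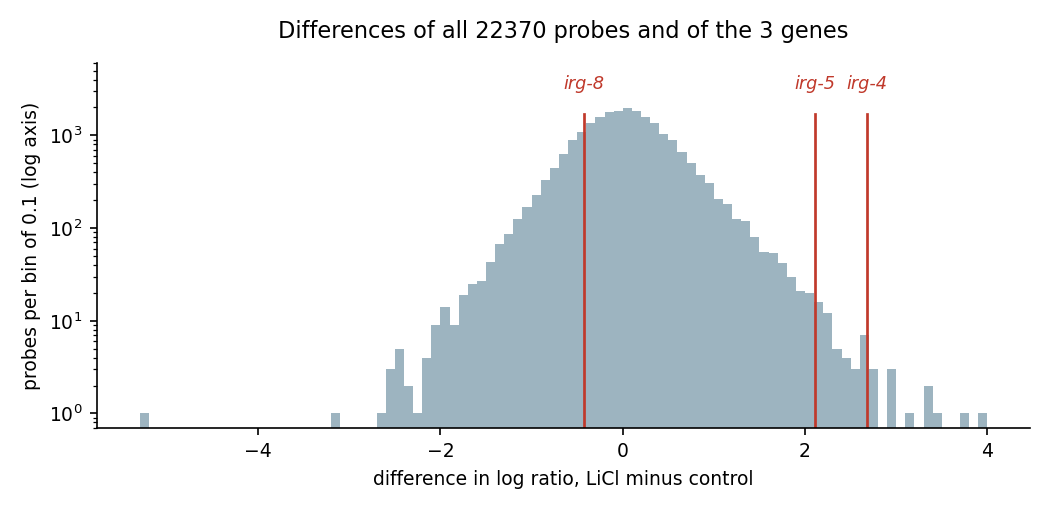
Number of probes (vertical log axis, bins of 0.1) by difference in log ratio, LiCl minus control, over all 22370 probes, with the 3 genes marked by red lines. irg-4 (2.68) and irg-5 (2.11) lie in the thin right tail, and irg-8 (-0.42) lies within the bulk.

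An exact permutation test over all 924 assignments of the arrays gave p = 0.00216 for irg-4 and for irg-5, the smallest it can give, and p = 0.193 for irg-8 (two-sided, unadjusted). With each of the 12 arrays left out in turn, the limma adjusted p stayed between 0.000658 and 0.00264 for irg-4 and between 0.000281 and 0.0014 for irg-5. LiCl replicate 1 was the highest LiCl array for both genes and had the lowest array weight of the 12 (0.524). Without it the difference was 2.50 for irg-4 and 1.91 for irg-5, the lowest of the 12 omissions for each.

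Because the scale of the log ratio is not known, the place of each gene among all probes of the same array was also taken. This place orders ratios to the reference, not amounts of RNA, and with the ratio turned each place would be counted from the other end, the lowest becoming the highest. The log ratio of irg-4 equalled or exceeded that of 9.33% to 42.7% of probes on control arrays and of 77.5% to 98.5% on LiCl arrays. The mean moved from 23.4% ± 13.2 (SD, n = 6) to 92.9% ± 7.95 (SD, n = 6). irg-5 went from the lowest few percent of each control array (2.99% to 5.72%) to between 23.7% and 46.7% on 5 LiCl arrays and 79.0% on replicate 1. Its mean moved from 4.26% ± 1.06 (SD, n = 6) to 42.5% ± 19.9 (SD, n = 6). irg-8 lay in the lowest 5 percent of every array, at 1.70% to 4.89% in control and 0.806% to 3.32% in LiCl. Only log ratios were at hand, so whether irg-8, or irg-5 in control, lay near the background signal cannot be told. In places as in log ratios, control and LiCl were apart for irg-4 and irg-5 and overlapped for irg-8 (exact permutation test, two-sided, p = 0.141). Groups that lie apart always get the smallest p of the exact permutation test, 0.00216, so for irg-4 and irg-5 it adds nothing to the separation. In log ratios 3.60% of all probes lay apart with LiCl higher and 3.00% with LiCl lower. The share in places was not taken.

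**Figure D3:**
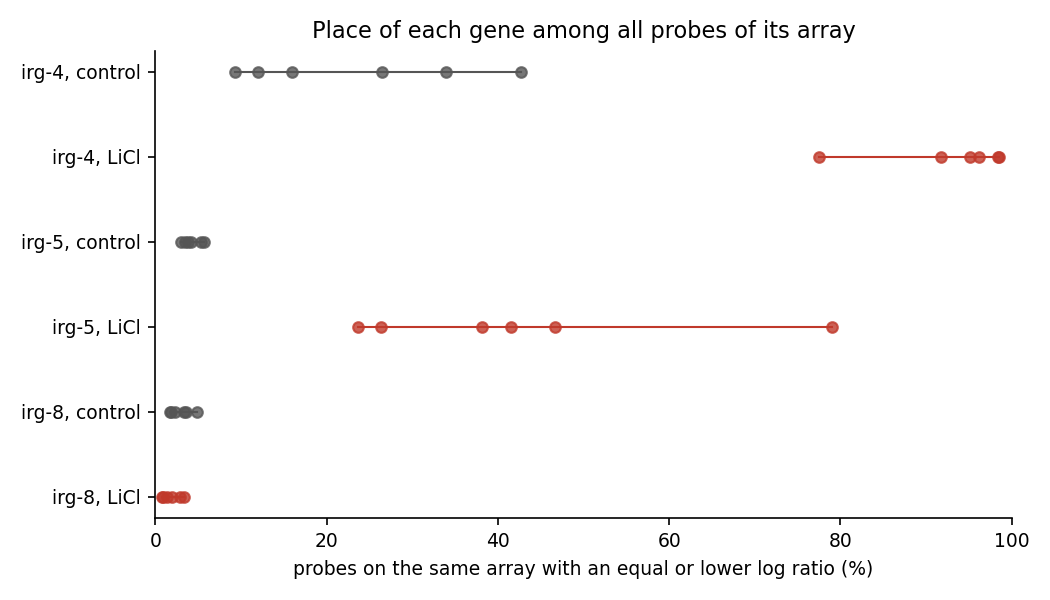
Place of each gene on each array, as the percent of probes of that array with an equal or lower log ratio (horizontal axis); each point is 1 array, control in grey and LiCl in red, and lines join the lowest and highest of 6 arrays. irg-4 moves from at most 42.7% to at least 77.5%, irg-5 from at most 5.72% to at least 23.7%, and irg-8 stays at or under 4.89%.

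The spread between arrays of a group differed among the genes. For irg-4 the SD was 0.61 in control and 0.71 in LiCl, larger than that of 71.1% and 73.8% of probes. irg-5 had an SD of 0.27 in control, larger than that of only 29.1% of probes, and 0.55 in LiCl, larger than that of 58.7%. For irg-8 the SD was 0.35 in control and 0.63 in LiCl, against medians over all probes of 0.41 and 0.48. Whether the spread of a gene differed between the groups was not tested.

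Array by array, irg-4 and irg-5 varied in the same sense within LiCl, but the relation did not pass after adjustment over the 6 pairs of genes and groups. Over the 6 LiCl arrays Pearson's r was 0.85 (exact permutation p = 0.0222, adjusted p = 0.133) and Spearman's rho 0.89 (exact permutation p = 0.0333, adjusted p = 0.2). On all 6 of these arrays both genes lay on the same side of their group mean. Replicates 1 and 5 were above in both, and replicates 2, 3, 4 and 6 below in both. Some lay almost on the mean, with deviations of -0.026 for irg-4 on replicate 2 and -0.0047 for irg-5 on replicate 6. Replicate 1 deviated by 0.89 in irg-4 and 0.98 in irg-5, and replicate 4 by -1.04 and -0.45. Without these 2 arrays, the farthest from the median of irg-4, r was 0.80 over the remaining 4.

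Within the controls r for irg-4 and irg-5 was 0.70 (exact permutation p = 0.128, adjusted p = 0.383) and rho 0.71 (exact permutation p = 0.136, adjusted p = 0.408), and 4 of 6 arrays lay on the same side in both genes. Control replicates 3 and 4 were low in both. Without replicates 2 and 3, r was 0.52 over 4 arrays. When places within the array replaced the log ratios, r fell to 0.24 in control and 0.60 in LiCl. Quantile normalization gave 0.34 and 0.78. The size of r thus differed between these forms of the values, and the cause was not tested.

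No pair with irg-8 passed the test in either group. With irg-4 its r was 0.27 in control (exact permutation p = 0.56, adjusted p = 0.84) and -0.35 in LiCl (exact permutation p = 0.488, adjusted p = 0.84), and rho was 0.49 (exact permutation p = 0.356, adjusted p = 0.711) and -0.37 (exact permutation p = 0.497, adjusted p = 0.746). With irg-5 r was 0.09 in control (exact permutation p = 0.89, adjusted p = 0.89) and 0.15 in LiCl (exact permutation p = 0.782, adjusted p = 0.89), and rho was 0.03 (exact permutation p = 1, adjusted p = 1) and -0.09 (exact permutation p = 0.919, adjusted p = 1). Single LiCl arrays went either way. Replicate 5 was the lowest LiCl array for irg-8 (-3.93) and had the second highest irg-4 value (2.46), and replicate 4 was the highest for irg-8 (-2.33) and the lowest for irg-4 (0.73). Replicate 1, in contrast, was the highest for irg-4 (2.66) and the second highest for irg-8 (-2.45). Without the 2 arrays farthest from the median of the first gene, r over 4 arrays was between -0.63 and -0.82 in all 4 of these comparisons, and in 3 of them this turned the sign.

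**Figure D4:**
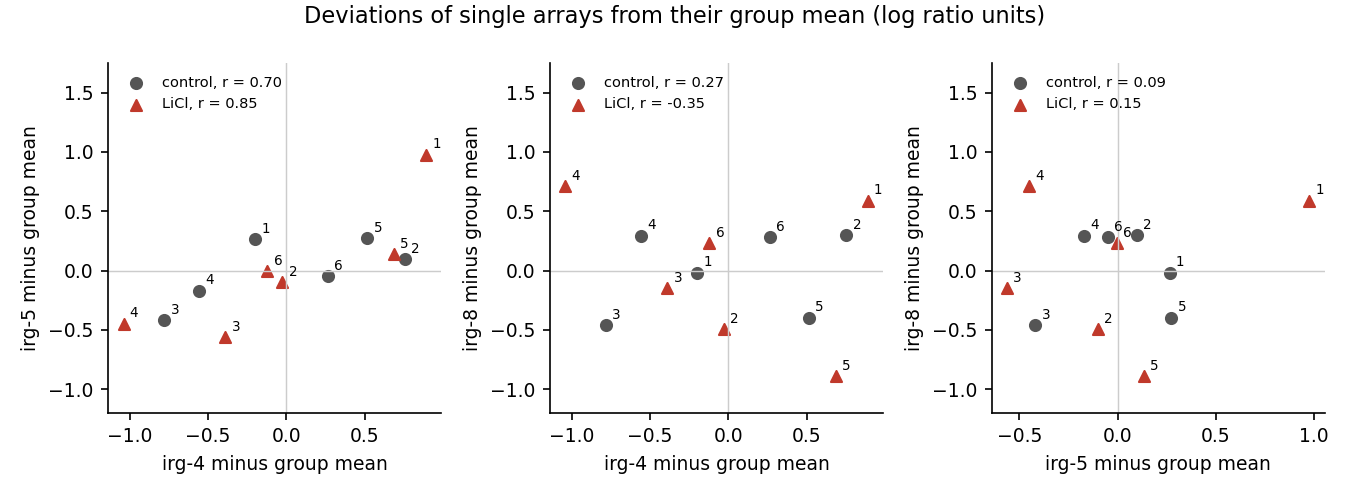
Deviation of each array from its group mean, in log ratio units, for the 3 pairs of genes; grey circles are control and red triangles LiCl arrays, numbered by replicate. Points of irg-4 and irg-5 run from lower left to upper right (r = 0.70 in control and 0.85 in LiCl, neither past the adjusted threshold), and the panels with irg-8 show no such run.

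Likeness of profiles was ranked over the 8525 other named probes with values on all 12 arrays, as Pearson's r of the 12 log ratios. This measure is set largely by the group difference and is given as a description. irg-5 was the second most similar probe to irg-4 and irg-4 the second most similar to irg-5 (r = 0.97). The nearest genes to irg-4 were C07A9.9 (r = 0.97), irg-5, T12D8.5 (r = 0.96), F19G12.3 (r = 0.96) and txt-19 (r = 0.95). The nearest to irg-5 were T28B8.1 (r = 0.97), irg-4, T20G5.8 (r = 0.97), F19G12.3 (r = 0.96) and F31D4.8 (r = 0.96). F19G12.3 was among the nearest 5 of both, and it rose by 2.41 ± 0.22 (SE, limma adjusted p = 0.000131). All 7 of these other genes were higher in LiCl, from 0.99 for T12D8.5 to 2.41, as such a likeness requires. For irg-4, 53 named probes had an r over 0.9, and for irg-5 86, so their high r is shared with many probes.

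Taken over deviations from the group means, which leaves the group difference out, r between irg-4 and irg-5 was 0.78 over 12 arrays. By this measure irg-5 was 32nd in likeness to irg-4 and irg-4 86th in likeness to irg-5, among 8525 probes. The nearest genes to irg-4 were then F54E4.2 (r = 0.90), M01E5.3, K08C9.7, T05E12.3 and W06H8.5, none of which passed the group test. The nearest to irg-5 were T23F2.5 (r = 0.93), F54E4.2 (r = 0.92), C38D9.8, R10H1.1 and T28B8.1, of which T28B8.1 was called (1.15 ± 0.20, SE, limma adjusted p = 0.00434). F54E4.2 was the gene near both. By this measure 0 named probes had an r over 0.9 with irg-4, and 3 with irg-5. As the highest of 8525 values over 12 arrays, these r were not tested and are given as a description.

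For irg-8, whose groups overlap, 3 of the 5 nearest genes were the same by both measures. Over the 12 log ratios they were T24D5.1 (r = 0.91), T25D10.1 (r = 0.91), W09C3.4 (r = 0.88), C45G7.4 (r = 0.84) and F41D3.6 (r = 0.83). Over deviations they were T25D10.1 (r = 0.90), T24D5.1 (r = 0.90), Y69H2.9, C42D8.1 and W09C3.4. None of these 7 genes passed the group test. Their r, the highest among 8525 probes, was not tested and is given as a description. irg-4 stood at place 7722 and irg-5 at place 7144 of 8525 in likeness to irg-8 over the log ratios. Over deviations they stood at places 5880 and 3356.

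The gene table holds 8 irg genes, and irg-1, irg-2, irg-3, irg-6 and irg-7 have no probe named for them and were left out. Of the 22370 probes 8757 carry a name, and the others were not searched for any gene. A gene without a named probe may thus still have a probe on the array. Below, a measured gene is one with a named probe. The other parts of the defence system were read from lists of gene names. None of the 35 listed regulators, among them the p38 cascade genes tir-1, nsy-1, sek-1 and pmk-1 and its transcription factor atf-7, carries a named probe. The same holds for 16 lysozymes, 264 C-type lectins and 69 antimicrobial peptide genes. The upstream pathway of irg-4 and irg-5 therefore cannot be described from the named probes.

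The list of CUB-like and dod effectors joins genes named cld or dod with further effector genes added by name, sysm-1 among them. The dod genes are named as downstream of DAF-16, the transcription factor of the insulin pathway. Of the 17 genes on the list 5 had a named probe, none of them a dod gene. Of these 5 genes 2 rose and 3 did not pass the test, with a median difference of 0.90. Over all probes 4.50% were called higher and 3.50% lower, and the median was 0.02. cld-1 rose by 1.46 ± 0.30 (SE, limma adjusted p = 0.0113), from between -2.34 and -0.80 on control arrays to between -0.75 and 0.65 on LiCl arrays. K08D8.5 rose by 1.09 ± 0.24 (SE, limma adjusted p = 0.0139), with groups that overlapped slightly, the highest control at -0.02 and the lowest LiCl array at -0.09. sysm-1, whose older name T24B8.5 is that of a common reporter of PMK-1 activity, missed the threshold at 0.90 ± 0.26 (SE, limma adjusted p = 0.0556). C32H11.4 (0.25) and F55G11.8 (0.10) had small differences that did not pass. All 5 differences were positive and smaller than those of irg-4 and irg-5. The saposin-like genes spp-24 (0.30) and spp-31 (-0.05), 2 of 30 listed, did not pass, and neither did the detoxification genes ugt-66 (0.96) and ugt-67 (0.57), 2 of 191 listed.

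Neighbouring genes were taken from WBcel235, where irg-4 lies on chromosome IV and irg-5 and irg-8 lie on chromosome V, in separate neighbourhoods. The deposited table names no genome build, so the gene table served for order only. Of the 5 protein-coding genes on each side of each member, 30 in all, 12 had a named probe. C25G4.2, the third gene from irg-4 on one side, rose by 0.91 ± 0.17 (SE, limma adjusted p = 0.00663), from between -0.29 and 0.33 on control arrays to between 0.52 and 1.25 on LiCl arrays. The other 2 measured neighbours of irg-4, F08G5.3 (0.20) and C25G4.3 (0.27), did not pass, and the 2 lectin genes directly beside it, clec-184 and clec-185, carry no named probe.

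None of the 6 measured neighbours of irg-5 passed the test. F35E12.6, directly beside irg-5, differed by 0.49 ± 0.31 (SE, limma adjusted p = 0.387) and F35E12.9, on its other side, by 0.43 ± 0.22 (SE, limma adjusted p = 0.265), both smaller than the 2.11 of irg-5. F20G2.2 was nearest to the threshold, at -0.69 ± 0.20 (SE, limma adjusted p = 0.0541). Of the 3 measured neighbours of irg-8, none passed, with differences between -0.12 and 0.74, and dod-19, directly beside it, and dod-20, the second on its other side, carry no named probe. Over the 12 neighbours the median difference was 0.30, against 0.02 over all probes, and 1 rose and none fell. Over all probes 4.50% rose and 3.50% fell, so a count of 1 among 12 is no result about the neighbours.

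**Figure D5:**
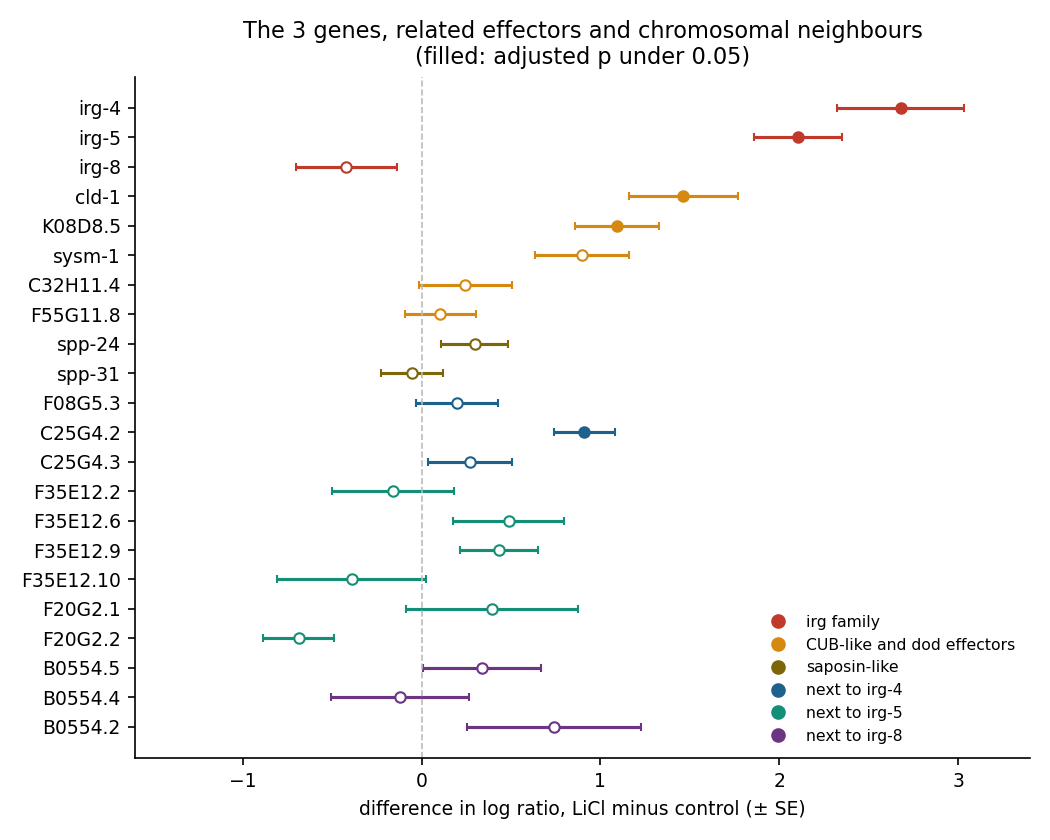
Difference in log ratio, LiCl minus control, with its SE (horizontal axis) for the 3 genes, related effectors and chromosomal neighbours, as far as they had a named probe. The effectors are those of the CUB-like and dod list, none of them a dod gene, and the saposin-like genes. Filled points have an adjusted p under 0.05. irg-4 (2.68) and irg-5 (2.11) lie to the right of the other genes shown, of which cld-1 (1.46), K08D8.5 (1.09) and C25G4.2 (0.91) are filled.

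The tissue that carries irg-4 and irg-5 could not be checked, since none of 13 intestinal, 4 muscle, 5 neuronal and 4 epidermal markers carries a named probe. Of 3 pharynx genes with a named probe, among 12 listed, phat-8 rose (1.01) and pqn-15 fell (-0.96). Of 10 sperm genes with a named probe, among 69 listed, spe-51 rose (2.07) and spe-57 fell (-0.88), and of 3 maternal memi genes none passed. Over all probes 4.50% were called higher and 3.50% lower, and with lists this short the counts are given as a description. The calls of phat-8, spe-51 and spe-57 were not stable. With the replicate block the limma adjusted p was 0.0697 for phat-8 and 0.0593 for spe-57, and with array weights it was 0.0537 for spe-57. phat-8 fell short (limma adjusted p between 0.0554 and 0.0807) without control replicate 1, 3, 4 or 6 or LiCl replicate 1, 3, 5 or 6. spe-51 did so (0.0519 to 0.0616) without control replicate 2, 3, 4 or 5 or LiCl replicate 1, 4, 5 or 6, and spe-57, which had 5 control values, (0.057 to 0.0841) without control replicate 2, 3, 4 or 5 or LiCl replicate 1, 2, 4 or 6. The part of a shift in tissue or stage in the rise of irg-4 and irg-5 was not tested. Array medians lay between 0.018 and 0.044, between 16 and 150 probes lacked a value on an array, and arrays correlated at 0.52 to 0.78 with one another across probes.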

How the data were processed

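The authors deposited 1 processed log ratio per probe and array, read here as log2. The scanner, normalization and spot filter are not given in the labels. Interquartile ranges were 1.33 to 1.34 on every array, and a scaling by the authors was not tested. Probe names came from the platform annotation, updated by gene identifier for 8724 of 8757 named probes.

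Groups were compared with R 4.3.3 and its package limma 3.58.1, by lmFit and eBayes without covariates, on all 22370 probes, which all had values on at least 4 arrays a group, with Benjamini-Hochberg adjustment and a threshold of 0.05. Correlations were tested within groups over all 720 orderings. The code was tested on simulated data. Precision is limited by the number of arrays. The labels do not say that replicate numbers mark a shared batch, so numbers were not taken as pairs. Of 6 pairs of equal replicate number, 1 had deviations that correlated above 0.1. Pairs of unequal number were not compared, so this cannot show that pairing is absent.

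The members, lists and tests were chosen with earlier results of these data known. Named are the 3 genes, the 5 genes most like each by 2 measures, and called members of each list, and other genes were named after their values were seen. Probe, promoter and protein sequences were not used here, so signal from similar transcripts cannot be told apart. Python 3.11.15 with matplotlib 3.10.9 drew the figures.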

Additional observations from a re-analysis of the deposited data

How the results depend on the processing

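irg-4 and irg-5 kept direction and call under all 11 alternatives other than leaving out an array, and irg-8 stayed uncalled under all 11. The alternatives were 3 normalizations, complete probes only, 2 variance models, array weights and a replicate block. The others were adjustment over named probes, the exact test and, added after seeing the data, places within the array. Complete probes, the variance models, the block and the named-probe adjustment leave the difference as it is, so only the SE and the p-value could change. Both exact tests were read by their unadjusted p, which for irg-4 and irg-5 is fixed at its smallest value, as their groups do not overlap. Leaving out 1 array gave 2.50 to 2.89 for irg-4, 1.91 to 2.22 for irg-5 and -0.56 to -0.24 for irg-8. With the replicate number as a block the differences stayed at 2.68 (adjusted p = 0.00453), 2.11 (adjusted p = 0.00319) and -0.42 (adjusted p = 0.302). Their SE fell to 0.26, 0.17 and 0.22, and 1393 probes passed the threshold in place of 1789. The 1789 changed probes became 720 when only named probes were adjusted, since fewer were tested, and 1181 to 1600 with 1 array left out, the lowest without control replicate 4; the cause was not tested.

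Pearson's r of irg-4 with irg-5 ranged from 0.43 to 0.89 in control and 0.82 to 0.91 in LiCl when 1 array was left out. For irg-4 with irg-8 it ranged from -0.21 to 0.65 in control and -0.91 to 0.080 in LiCl, and for irg-5 with irg-8 from -0.79 to 0.51 and -0.58 to 0.50. In control, r changed sign with quantile normalization (-0.0097 for irg-4 and -0.25 for irg-5, each with irg-8) and with places within the array (-0.082 and -0.30), the cause not tested. The low ends in control came without replicate 3 and those in LiCl without replicate 1. cld-1, K08D8.5 and C25G4.2 kept their call under all 21 settings run for them. phat-8 lost it in 9 of 21 (8 left-out arrays and the replicate block), spe-51 in 8 of 21 (left-out arrays) and spe-57 in 10 of 20 (8 left-out arrays, the replicate block and array weights).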
